A study of Mus musculus with 8 samples.

Results

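Interferon response genes are described here in the livers of 8 young adult male mice, 1 array an animal. The list holds 39 genes that interferons are known to induce, or that carry and modify the response; 37 of them, among 18193 genes in all, were read by 59 probe sets annotated with 1 symbol each. Ifi44 and Isg15 had no such probe set and are not analysed here. The 4 control mice, txnrd1 cond/+ albCre0, carried 1 conditional and 1 wild-type allele of txnrd1 and no Cre. The 4 Txnrd1-deficient mice, txnrd1 cond/- albCre1, carried 1 conditional and 1 null allele together with a Cre transgene under the albumin promoter, which is active in hepatocytes and removes the conditional allele there. Other liver cells of these mice keep the conditional allele. The genotypes thus differed in the Cre transgene and in the second txnrd1 allele of every cell as well as in hepatocyte Txnrd1, a thioredoxin reductase that works outside mitochondria, and these cannot be told apart. All mice were housed alone for 10 days on a cycle of 14 h of light and killed in the early afternoon. Control animals bear the numbers 70, 71, 80 and 82 and Txnrd1-deficient animals 69, 72, 73 and 81. Whether any were littermates is not stated.

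Interferons are secreted proteins of host defence: many cell types release type I interferons when they sense microbial nucleic acids, and T and NK cells release interferon gamma when stimulated. Type I interferons bind a receptor whose kinases activate Stat2, which acts with Irf9 at interferon-stimulated response elements (ISREs) in promoters, while interferon gamma acts through gamma-activated sites (GAS). Most of the induced genes block viral replication, widen the sensing of nucleic acids, present peptides to T cells or damp the response again, and uninfected liver keeps a low basal level of many of them in hepatocytes, Kupffer cells and endothelium.

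Each value below is a log2 ratio: the signal of a probe set in 1 animal over about its median across the 8 arrays, averaged over the probe sets of a gene. A value of 0 is therefore the middle of these 8 livers, and a ratio holds no level, so neither the amount of one gene against another nor the presence of a liver marker could be read. Over all genes the median of each array lay between -0.01 and 0.01. Txnrd1 itself was read by 3 probe sets whose log2 differences between the genotypes were 1.11 (SE 0.26), -0.71 (SE 0.19) and -0.41 (SE 0.13); the first was higher in every Txnrd1-deficient liver and the last lower in every one. Which of them lies in the deleted part was not analysed here, so they do not check the labels. The number of arrays, 4 a genotype, limits the precision.

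Motifs bound by the factors of the interferon response were looked for in the promoters. Of the 37 measured members, 27 had an entry in the RefSeq promoter table (GRCm38.p6), which holds 250 bases before to 50 bases after each start site. The core of the ISRE, searched as GAAANNGAAA on both strands with overlapping matches counted, was in the window of 14 of the 27 members (51.9%) and of 3.63% of the 14452 measured genes with a window. The GAS core, TTCNNNGAA, whose matches can share bases with the ISRE core, was in 8 of 27 (29.6%), beside 8.57% of measured genes. The 5 stretches below lie before the start site of genes described later. They belong to the members lowest in control animal 80 among those with the core in such a stretch outside the annotated gene. Capitals mark the ISRE core, or its reverse complement where the letters begin TTTC. Ifit1 holds 2 matches, Bst2 2 that overlap, and the other 3 genes 1 each. The stretches are chr19:34640765-34640833 on the plus strand (Ifit1), chr5:92349073-92349122 on the minus strand (Cxcl10), chr12:26456543-26456592 on the minus strand (Rsad2), chr8:71537567-71537622 on the minus strand (Bst2) and chr3:142620584-142620633 on the plus strand (Gbp2), each written 5′ to 3′ in the direction of its gene.
Ifit1: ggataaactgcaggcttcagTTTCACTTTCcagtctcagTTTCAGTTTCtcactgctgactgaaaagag
Cxcl10: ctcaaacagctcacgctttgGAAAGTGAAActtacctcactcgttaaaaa
Rsad2: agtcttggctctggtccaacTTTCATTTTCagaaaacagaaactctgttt
Bst2: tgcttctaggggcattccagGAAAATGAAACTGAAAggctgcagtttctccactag
Gbp2: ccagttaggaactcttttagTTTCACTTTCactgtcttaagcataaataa

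The study compared liver transcripts with and without Txnrd1 in hepatocytes. No member passed a test of a difference between the genotypes. By limma's moderated test, adjusted over all genes by Benjamini-Hochberg, 0 of 37 members passed an adjusted p of 0.05 with a difference of 1.5-fold in either direction, beside 0.077% of all genes higher and 0.0055% lower in Txnrd1-deficient liver. At an unadjusted limma p of 0.05 and 1.5-fold, 0 of 37 passed as well, beside 0.572% of all genes higher and 0.0824% lower. The groups did not separate for any member either: 0 of 37 had all Txnrd1-deficient animals above or all below the controls, beside 1.13% of all genes above and 0.583% below. Without the fold threshold, 0 of 37 reached an unadjusted p of 0.05 in limma, beside 2.32% of all genes, and 0 did so in an exact 2-sided permutation test over the 70 splits of the animals, whose smallest possible p is 0.0286. The lowest exact p, 0.0571, belonged to Oas2 and Stat2. The lowest adjusted p of any member in limma was 0.9999.

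These data bound the difference in measured ratios for some members and not for others. A probe set at background cannot be recognised here, so a narrow interval need not bound the difference in transcript. The 95% interval of the log2 difference lay within 1.5-fold either way (0.58 on the log2 scale) for 20 of 37 members. It reached 1.5-fold higher in Txnrd1-deficient liver for 17 members and 1.5-fold lower for 3. Fitted log2 differences ran from -0.18 for Stat2 to 0.58 for Ifit1, with a median of 0.10 beside 0.00 over all genes, and 30 of the 37 were above 0 (81.1%, beside 51.1% of all genes). That lean rested on 1 animal: with control animal 80 left out, 17 of 37 were above 0 and the median was -0.01. Without control animal 70 the median was 0.16, and without Txnrd1-deficient animal 72 it was 0.18. In whole liver RNA, fewer cells of a type and less RNA per cell cannot be told apart.

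**Figure D1:**
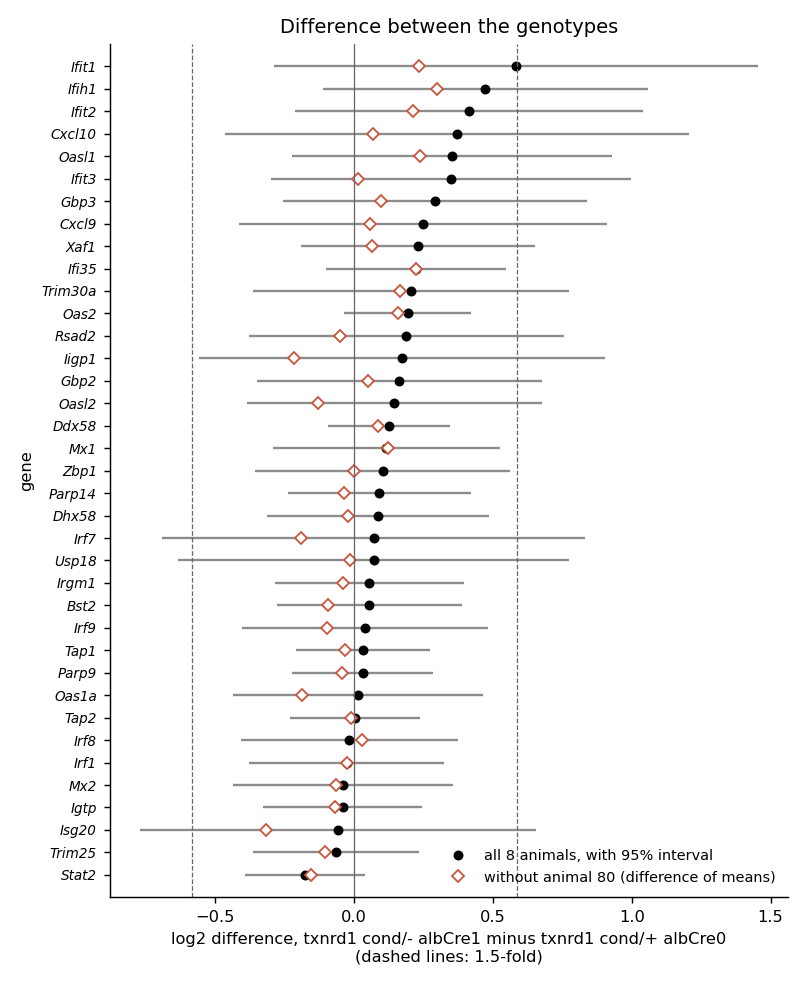
Log2 difference of each of the 37 measured genes between txnrd1 cond/- albCre1 and txnrd1 cond/+ albCre0 livers (horizontal axis; 4 animals each), with its 95% interval from limma as a bar and the difference of group means without control animal 80 as a diamond. Every interval spans 0, and without animal 80 the diamonds fall on both sides of 0, 17 of them above it.

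By their medians, the members varied more between animals of one genotype than between the group means. Stat2 and Oas2 were among those that did not. The median member had an SD of 0.31 over the 8 animals, beside 0.20 over all genes, and 29 of 37 members exceeded that median of all genes. Within genotypes the pooled SD of the median member was 0.32, beside 0.20 over all genes, and 0.27 beside 0.19 without animal 80. The mean over the 37 members was 0.12, -0.01, -0.50 and -0.02 in control animals 70, 71, 80 and 82 (mean -0.10 ± 0.27, SD, n = 4) and 0.14, -0.22, 0.02 and 0.19 in Txnrd1-deficient animals 69, 72, 73 and 81 (mean 0.03 ± 0.18, SD, n = 4). The group ranges overlapped, and the lowest of the 8 was a control. Without animal 80 the controls' mean was 0.03 ± 0.08 (SD, n = 3), next to the Txnrd1-deficient mean.

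Control animal 80 had the lowest value of all 8 for 23 of 37 members (62.2%), beside 15.9% of all genes, and the highest for none, beside 15.6%. In it 34 members were below 0, and 14 were down by 1.5-fold or more (37.8%, beside 2.52% of all genes). Among the Txnrd1-deficient animals, animal 72 was the lowest for 27 of 37 members (73.0%, beside 36.9% of all genes), with a member median of -0.21. The members stood highest in animal 81, at a median of 0.14, and 7 of 37 were below 0 there. Since animals were not chosen in advance, these shares describe the livers and carry no test.

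**Figure D2:**
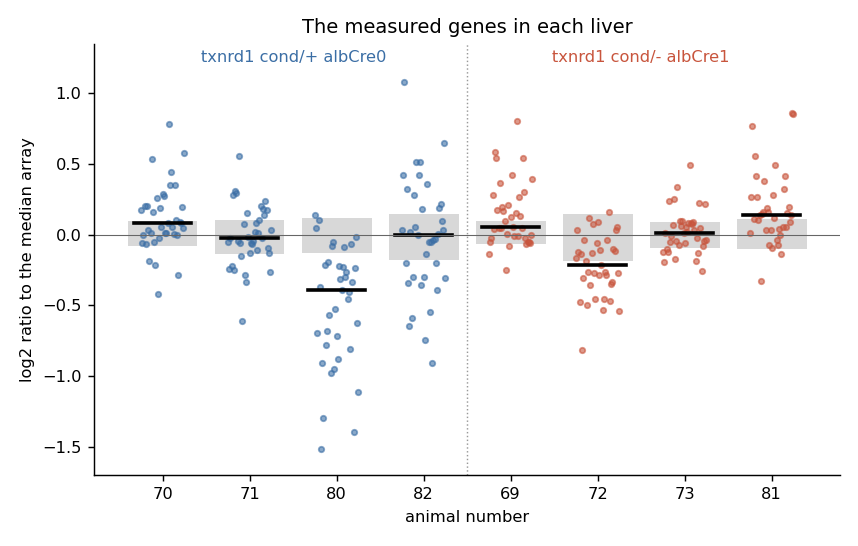
Log2 ratio of the 37 measured genes (points) in each of the 8 livers, with their median as a black line and the middle quartiles of all 18193 genes as a grey band. The points of control animal 80 lie mostly under the band, with a median of -0.39, and those of Txnrd1-deficient animal 72 lie lower than in the other livers of its genotype, with a median of -0.21.

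Transcription factors of the response did not move as one. Stat2, which is activated under the type I receptor, had the largest difference of the 5 at -0.18 (SE 0.10) and was not low in animal 80 (0.14). Irf1 and Irf8, which also answer interferon gamma, stood at 0.05 and 0.11 in animal 80, and Irf9, the DNA-binding partner of Stat2, at -0.37. Irf7, the factor that amplifies type I interferon production, varied most. It was at -0.00, -0.02, -0.70 and 1.08 in control animals 70, 71, 80 and 82 and at -0.02, -0.12, 0.01 and 0.77 in Txnrd1-deficient animals 69, 72, 73 and 81. Animals 82 and 81 were high, 1 of each genotype, animal 80 was low, and the other 5 lay near 0. The groups overlapped over most of their range, with a log2 difference of 0.07 (SE 0.34, limma adjusted p = 0.9999).

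Antiviral effectors, the largest of the role groups, were low in animal 80: all 14 measured were below 0 there, 10 of them at their lowest of the 8, with a median of -0.70. Ifit1 binds viral RNA that lacks the host's cap methylation. It stood at 0.20, -0.25, -1.52 and -0.34 in control animals 70, 71, 80 and 82 and at 0.59, -0.82, 0.24 and 0.41 in Txnrd1-deficient animals 69, 72, 73 and 81, a span of 4.31-fold. The low animals were 80 and 72, 1 of each genotype, and the ranges of the groups overlapped. Its log2 difference of 0.58 (SE 0.39, 95% interval -0.29 to 1.45) was the largest of any member and had an adjusted p of 0.9999 in limma and an exact permutation p of 0.286. Without animal 80 it was 0.23. Its neighbours in the family, Ifit2 and Ifit3, had log2 differences of 0.41 (SE 0.28) and 0.35 (SE 0.29) and lay at -0.91 and -1.30 in animal 80, without which the differences were 0.21 and 0.01.

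Isg20, an exonuclease that degrades viral RNA, split both groups. The control animals 70, 71, 80 and 82 stood at 0.54, 0.56, -0.78 and -0.30 and the Txnrd1-deficient animals 69, 72, 73 and 81 at 0.36, -0.50, 0.25 and -0.33. Each genotype thus had a pair of high and a pair of low livers, and the log2 difference was -0.06 (SE 0.32, limma adjusted p = 0.9999). The 2',5'-oligoadenylate synthetases, which activate RNase L, lay at -0.68 (Oas1a) and -0.19 (Oas2) in animal 80. Their relatives Oasl1 and Oasl2 lay at -0.57 and -0.98. Rsad2 (viperin), whose product is a chain terminator of viral RNA synthesis, was at -0.95 in animal 80, Xaf1, which promotes apoptosis, at -0.72, and Bst2 (tetherin), which holds budding virus at the membrane, at -0.53. The GTPases Mx1 and Mx2 were near 0 there, at -0.08 and -0.05, and their log2 differences were 0.12 (SE 0.18) and -0.04 (SE 0.18). Ifi35, a binding partner of Nmi, was by the mean of its 3 probe sets lowest in control animal 82, at -0.59, and not in animal 80 (-0.21). Its probe sets disagreed: they stood at -0.91, -0.85 and 0.01 in animal 82. The last of them was lowest in animal 80, at -0.27.

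**Figure D3:**
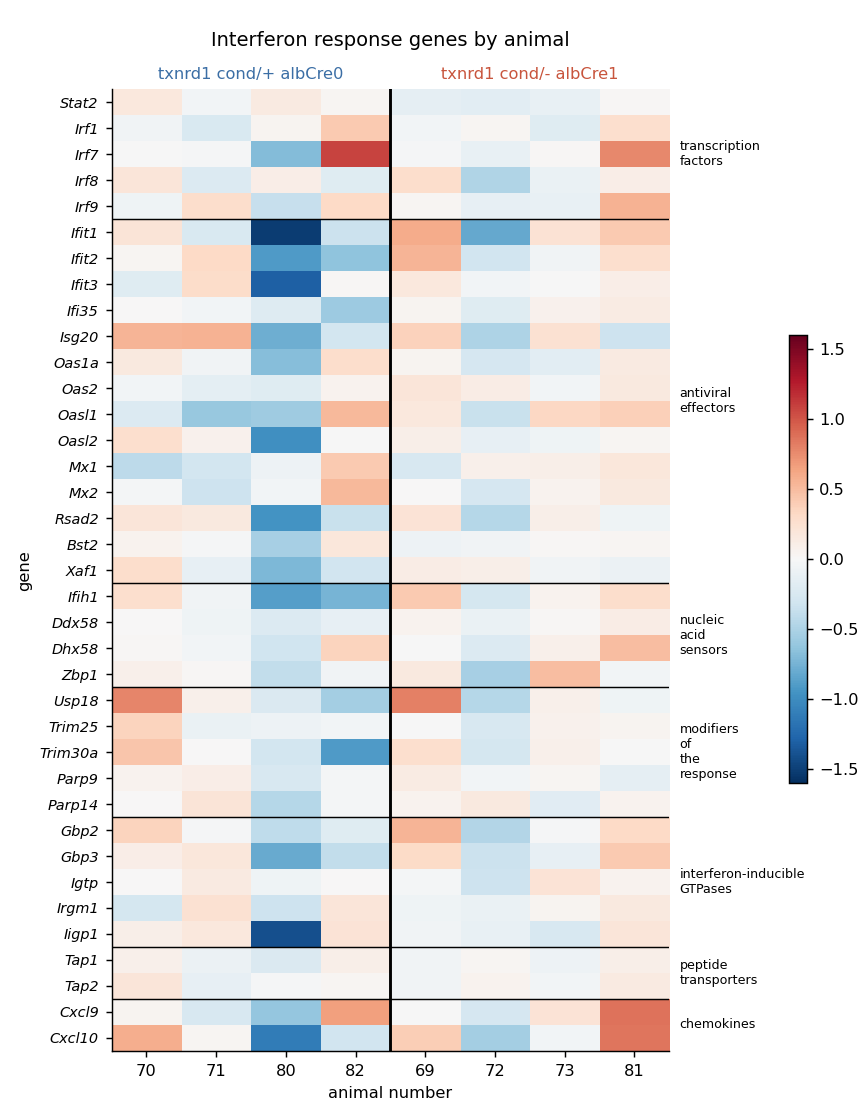
Log2 ratio of each of the 37 measured genes (rows, in groups by role) in each of the 8 livers (columns, controls left of the line); blue is below and red above the median array. The column of control animal 80 is blue for 34 genes, with Ifit1 (-1.52), Iigp1 (-1.40) and Ifit3 (-1.30) the lowest, and no gene has all 4 livers of one genotype above the other 4.

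Sensors of nucleic acids were likewise lowest in animal 80 in 3 of 4 cases. Ifih1 (MDA5), the sensor of long double-stranded RNA, was at -0.88 in animal 80 and -0.75 in animal 82, both controls, and its log2 difference was 0.47 (SE 0.26, limma adjusted p = 0.9999), and 0.30 without animal 80. Ddx58 (RIG-I), the sensor of RNA with a triphosphate end, spanned 1.27-fold over the 8 livers as the mean of 3 probe sets. In animal 80 its probe sets ran from -0.44 to 0.19. Dhx58 (LGP2), which tunes both, stood at -0.32 in animal 80, and Zbp1, the sensor of Z-form nucleic acid that triggers necroptosis, at -0.39. The log2 differences of Ddx58, Dhx58 and Zbp1 lay between 0.09 and 0.12.

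Among the genes that modify the response, Usp18, which strips Isg15 from proteins and blocks the type I receptor, was highest in 1 animal of each genotype. It stood at 0.78, 0.08, -0.23 and -0.55 in control animals 70, 71, 80 and 82 and at 0.80, -0.45, 0.08 and -0.07 in Txnrd1-deficient animals 69, 72, 73 and 81. Animals 70 and 69 were the high livers and 82 and 72 the low ones, so that animal 80 was not the lowest here. The log2 difference was 0.07 (SE 0.31, limma adjusted p = 0.9999). The ubiquitin ligase Trim25, which activates RIG-I, and the ADP-ribosylation genes Parp9 and Parp14 had log2 differences of -0.07, 0.03 and 0.09. Trim30a, which restrains inflammatory signalling, was lowest in animal 82, at -0.91.

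The interferon-inducible GTPases attack the vacuoles of intracellular microbes. Iigp1 stood at 0.09, 0.17, -1.40 and 0.22 in control animals 70, 71, 80 and 82 and at -0.05, -0.12, -0.26 and 0.20 in Txnrd1-deficient animals 69, 72, 73 and 81. Only animal 80 left the range of -0.26 to 0.22 that held the other 7 livers, and both probe sets of the gene were low in it, at -1.57 and -1.23. Its log2 difference was 0.17 (SE 0.33, limma adjusted p = 0.9999) and turned to -0.22 without animal 80. Gbp3 and Gbp2 were at -0.81 and -0.40 in animal 80, with log2 differences of 0.29 (SE 0.24) and 0.16 (SE 0.23) that were 0.10 and 0.05 without it, whereas Igtp and Irgm1 had differences of -0.04 and 0.05. The peptide transporters Tap1 and Tap2 load class I molecules. By gene means they were among the steadiest members, spanning 1.26-fold and 1.25-fold over all 8 livers. Tap1 is the mean of 4 probe sets that varied unequally, and a single probe set ran from -0.52 in animal 80 to 0.59 in animal 82.

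The chemokines draw T and NK cells through the receptor Cxcr3. Cxcl10 stood at 0.58, 0.03, -1.11 and -0.31 in control animals 70, 71, 80 and 82 and at 0.39, -0.54, -0.04 and 0.86 in Txnrd1-deficient animals 69, 72, 73 and 81, a span of 3.92-fold. Animal 80 was the lowest and animal 81 the highest, and the other 6 interleaved. The log2 difference was 0.37 (SE 0.37, limma adjusted p = 0.9999), and 0.07 without animal 80. Cxcl9 was at 0.65 in animal 82 and 0.86 in animal 81, and at -0.62 in animal 80.

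**Figure D4:**
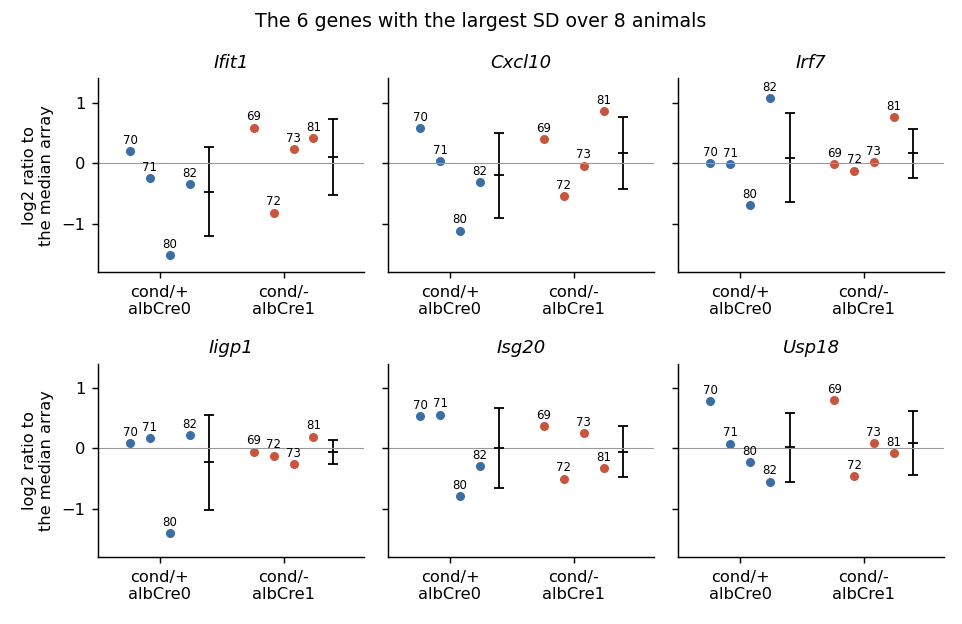
Log2 ratio in each liver (points with the animal's number) of the 6 genes with the largest SD over 8 animals, by genotype, with the group mean and SD (n = 4) as a bar. Animal 80 is the lowest liver for Ifit1, Cxcl10, Irf7, Iigp1 and Isg20, animal 82 for Usp18, and the groups overlap in all 6 panels.

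Control animal 82 had members well above and well below 0. In animal 82, 8 members (21.6%, beside 11.7% of all genes) were over 0.3, namely Irf7 (1.08), Cxcl9 (0.65), Oasl1, Mx2 (0.51 each), Mx1, Irf1 (0.42 each), Dhx58 (0.36) and Irf9 (0.32). Another 10 (27.0%, beside 15.7% of all genes) were under -0.3, led by Trim30a (-0.91), Ifih1 (-0.75), Ifit2 (-0.65), Ifi35 (-0.59) and Usp18 (-0.55). In Txnrd1-deficient animal 81 all 8 of the first were also above 0, from 0.16 to 0.86 with a median of 0.44. Only 7 of all 37 members were below 0 there. The second ran from -0.10 to 0.86 there, with a median of 0.20. In animal 80 the first had a median of -0.34 and the second of -0.85. The bound of 0.3 was set after the values were seen, so this is a description of 1 liver. That array was also widely spread over all genes, with 4.96% of them down by 1.5-fold or more, the most of the 8.

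Of the 27 members with a promoter window, those with and without the ISRE core were about equally low in animal 80. Over all 37 members the median there was less low, at -0.39. The median there was -0.60 for the 14 members with the core in the window, Ifit1, Cxcl10 and Rsad2 among them, and -0.57 for the 13 without, as for Ifit2 (-0.91) and Oasl2 (-0.98), and over all measured genes it was -0.02 with and -0.01 without. For the GAS core it was -0.37 in the 8 members with and -0.62 in the 19 without. A window without these letters says nothing of elements farther away.

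Single probe sets gave the same counts as their means. Of 59, none passed either pair of thresholds or separated the groups, and none reached an unadjusted p of 0.05 in limma. Animal 80 was the lowest for 33 of the 59. By gene means it was the lowest for 15.9% of all genes, and the share over all probe sets was not counted. Of the 15 members with several probe sets, 4 had log2 differences of both signs. The widest disagreement was in Dhx58, whose 3 probe sets ran from -0.32 to 0.43, and the 2 of Cxcl9 stood at -1.19 and -0.05 in animal 80. The value of those members depends on which probe sets are averaged.

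The rest of the pathway was read from lists that do not hold the 37 members. Of 40 other interferon-induced genes, 0 passed the unadjusted thresholds in either direction, with a median log2 difference of 0.07 (0.03 without animal 80) and 29 above 0. Its largest differences were those of the GTPase Gbp6, at 0.57 (SE 0.57) but 0.03 without animal 80, and of Parp12, an ADP-ribosyltransferase that blocks viral translation, at 0.51 (SE 0.24). In animal 80, 30 of the 40 were below 0, with a median of -0.18 beside -0.01 over all genes. There 14 of the 40 were at their lowest, beside 15.9% of all genes. The receptors and their signal transduction (14 genes) gave 0 calls and a median difference of -0.07, with Socs3, the feedback inhibitor of cytokine receptors, at -0.26 (SE 0.33) and the receptor chain Ifngr1 at -0.17 (SE 0.13). Their median in animal 80 was 0.01. Of 6 interferon genes themselves, 0 passed, with Ifna4 at 0.19 (SE 0.11) and Ifna1 at -0.11 (SE 0.14), and their medians lay between -0.10 and 0.19 in all 8 livers. A further 16 genes act upstream of interferon, as sensors of microbes or as their adaptors, kinases and transcription factors. Of these, 1 passed as higher, beside 0.572% of all genes. This was Ikbkg (NEMO), the regulatory subunit of the kinase that frees NF-kappaB. It stood between -0.34 and -0.20 in the controls and between 0.10 and 0.95 in the Txnrd1-deficient livers, without overlap, a log2 difference of 0.67 (SE 0.17, limma adjusted p = 0.865, exact permutation p = 0.0286). The study picked it from these same samples, so the value is not independent evidence. MHC genes (7 measured) gave 0 calls, with the class I genes H2-K1 at -0.33 (SE 0.15) and H2-D1 at -0.16 (SE 0.10).

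Marker lists of the liver's cell types were not low in animal 80 as the members were. The list medians there were 0.04 for 8 hepatocyte genes, -0.04 for 11 Kupffer cell and macrophage genes, 0.03 for 7 dendritic cell genes, -0.01 for 11 T and NK cell genes, -0.06 for 6 B cell and plasma cell genes, 0.10 for 9 neutrophil genes, 0.06 for 8 stellate cell genes, -0.00 for 5 cholangiocyte genes and 0.46 for 8 endothelial genes, beside -0.39 for the members. In animal 72 the Kupffer cell and macrophage list was at -0.33, the endothelial list at -0.25, the cholangiocyte list at -0.18, the stellate cell list at -0.11 and the members at -0.21, while the hepatocyte list was at 0.11. The hepatocyte list ranged from 0.00 to 0.06 over the controls and from -0.11 to 0.11 over the Txnrd1-deficient livers, and the Kupffer cell and macrophage list from -0.20 to 0.24 and from -0.33 to 0.16. Across the 9 cell type lists 1 gene passed the unadjusted thresholds, beside 0.572% of all genes higher and 0.0824% lower. It was Prtn3, a neutrophil granule protease, whose log2 difference was -1.20 (SE 0.33, limma adjusted p = 0.9999). A single gene is not read as a result about the lists. Control probe sets did not single out animal 80: the hybridization spikes averaged 0.35 in it and between -0.51 and 0.43 in the others, the poly-A spikes 0.01 in it and between -0.58 and 1.06 in the others, and the 3′ minus 5′ log2 ratio of actin was -0.17 in it and between -0.23 and 0.09 in the others. The part of cell makeup and array handling in the values of the members was not tested. Within animals 69 to 73 the median member difference was -0.05 and within 80 to 82 it was 0.35, the latter with 1 Txnrd1-deficient liver and with animal 80 as 1 of 2 controls; no source used here says whether these number ranges were handled as batches.

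**Figure D5:**
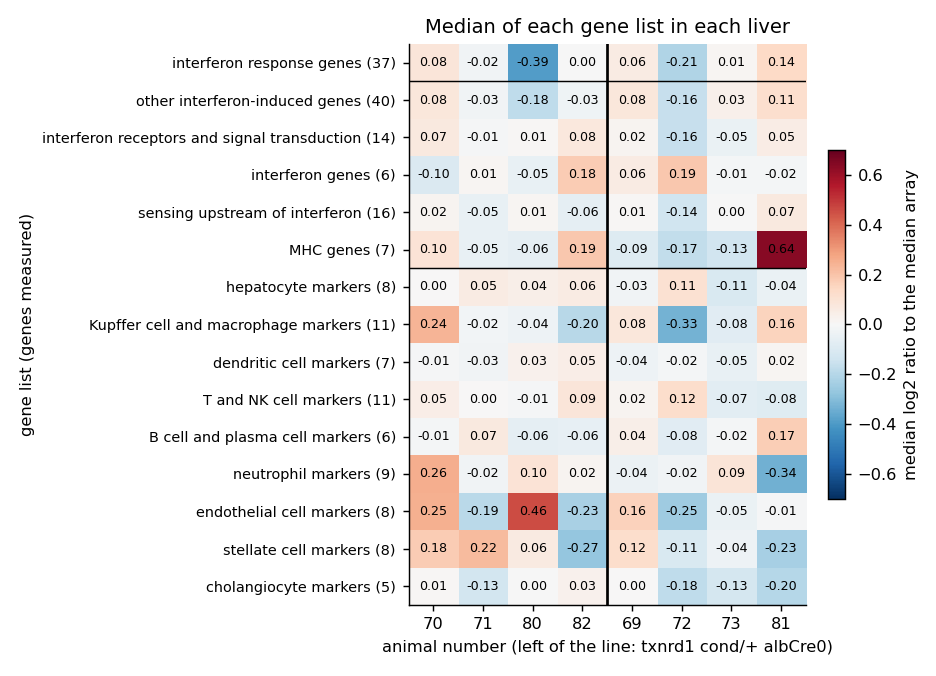
Median log2 ratio of each gene list (rows, with the number of genes measured) in each of the 8 livers (columns, controls left of the line), printed in each cell. The interferon response genes are at -0.39 in control animal 80, where the other interferon-induced genes are at -0.18 and the cell type lists lie between -0.06 and 0.46.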

How the data were processed

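RNA from 8 mouse livers was measured on Affymetrix mouse whole-genome arrays, 1 an animal. The authors deposited 1 table of linear ratios, made with RMA per the processing notes and GeneSpring per the methods, each probe set's signal over a value close to its median across arrays; intensities were not used here, so no filter on dim signal could be set, and a probe set at background cannot be recognised. Of 45037 probe sets other than array controls, 34945 carry 1 symbol in the platform annotation, 932 several and 9160 none; the first were taken to log2 and averaged per gene. Genotypes come from the titles. All 18193 genes were fitted with limma 3.58.1 in R 4.3.3 (no covariate, Benjamini-Hochberg), tested on simulated data. Members and lists were chosen with earlier results of these data known. Values of all animals are given for the 6 members of largest SD and for any past a threshold or without overlap; list genes are named when past the unadjusted thresholds, or otherwise the 2 largest differences. A limma p weighs the difference of the group means against the spread between animals within genotypes, moderated over all genes. Alternatives were array centring, quantile normalization, other probe set rules, robust and weighted fits, covariates and leaving out each animal.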

Additional observations from a re-analysis of the deposited data

Results flagged for a closer look

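In the 76 groups of 4 values examined (37 members and their mean, in each genotype), 3 held a liver whose gap to its nearest neighbour exceeded Dixon's 95% critical share of the group's range; chance alone marks about 1 group in 20, and 3 of 76 is 3.95%. Iigp1 was at -1.40 in control animal 80, where the next control stood at 0.09. Irf7 was at 0.77 in Txnrd1-deficient animal 81, where the next stood at 0.01. Trim25 was at 0.35 in control animal 70, where the next stood at -0.05.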

How the results depend on the processing

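The count of members called after adjustment stayed at 0 in both directions under every alternative run. Leaving out 1 animal at a time gave 0 to 1 members past the unadjusted thresholds as higher (Ifih1 without animal 70, Ifit2 without 71, Oasl1 without 82 and Ifit1 without 72) and 0 as lower. Groups then separated for 0 to 3 members as higher (Xaf1 without 70, Oas2 without 82 or 73, and Ifit1, Ifi35 and Ddx58 without 72) and for 0 to 1 as lower (Stat2 without 71 or 81). The share over all genes was not counted for these fits, and groups separate more readily with fewer animals. Shares given above for all animals do not apply, so these counts are not read as differences of the members. The median member difference, 0.10, ran from -0.01 (without animal 80) to 0.18 (without animal 72) over the fits with 1 animal left out and from 0.07 to 0.14 under the other alternatives. The hybridization control side, added as a covariate after the data were seen, left it at 0.10. The member mean of each animal moved by less than the SD between animals under centring, quantile normalization and the median over members. Among the 6 members given in full, the sign turned in the robust fit for Iigp1 (-0.16), with array weights for Isg20 (0.0093) and with the animal number range as a covariate for Usp18 (-0.070). With 1 animal left out, Irf7 ran from -0.19 to 0.40 (negative without 80 or 81), Iigp1 from -0.22 to 0.32 (negative without 80), Isg20 from -0.32 to 0.13 (positive without 70, 71, 72 or 81) and Usp18 from -0.17 to 0.32 (negative without 80, 82 or 69). No paired analysis was possible because no pairing of the animals is stated. With 4 arrays a genotype, the intervals of 17 members still held a 1.5-fold rise.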

Other observations

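Interferon-induced genes outside the 37 members, picked here after their values were seen, were also low in control animal 80: the GTPases Gbp6 (-2.12), Gbp7 (-0.95) and Ifi47 (-0.88), Ifi27l2a (-1.72), the receptor transporter Rtp4 (-0.78) and the immunoproteasome subunit Psmb9 (-0.72). Of the 40 other interferon-induced genes measured, 10 stood above 0 there, up to 0.13 for Eif2ak2. Gbp6 spanned the 8 livers from -2.12 to 1.15 in Txnrd1-deficient animal 81.

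The MHC class II genes, which antigen-presenting cells express, were highest in animal 81, as the members were by their median. H2-Aa, H2-Ab1, H2-Eb1 and the invariant chain Cd74 were at 0.64, 0.90, 0.94 and 0.77 in Txnrd1-deficient animal 81 and at -0.13, -0.06, -0.08 and -0.02 in control animal 80, where the members were lowest. In control animal 82 they were at 0.62, 0.18, 0.19 and 0.32, so that H2-Aa was about as high there. Their log2 differences between the genotypes were -0.00 (SE 0.23), 0.04 (SE 0.25), 0.11 (SE 0.23) and 0.07 (SE 0.19), and none passed the thresholds.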
